A study of Mus musculus with 24 samples.

Results

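The 42 cell cycle and proliferation genes described here were listed by symbol, 14 that act around DNA replication (S phase genes) and 28 that act from late S phase through mitosis (mitotic genes). All 42 had at least 1 probe on the array by accession. A gene was kept when a probe of it was well above background in the sample channel on 6 or more of the 24 arrays, which left 38 genes, 13 of the S phase and 25 of the mitotic genes, among 22322 gene and probe features kept in mouse fat. RNA came from epididymal white fat, a pad that borders the testis, of adult male C57BL/6JRcc mice that were 28 or 29 weeks old at the end and individually housed. For 18 weeks, the 12 mice of the No NR group were fed a semi-synthetic diet that held 0 mg/kg of NR, nicotinamide riboside, a vitamin B3 form from which cells make the coenzyme NAD. The 12 mice of the Ctrl NR group were fed this diet with 30 mg/kg NR. Both diets drew 40% of their energy from fat and held little tryptophan, an amino acid from which NAD can also be made, at 0.115%, so neither group was free of a precursor of NAD. All mice had eaten the Ctrl NR diet for 2 weeks before, and all were fasted and then refed for 4 hours before the tissue was taken. RNA of each mouse was labelled with the dye Cy5 and hybridised on its own array against a common pool labelled with Cy3, made of fat-pad RNA that also came from other diets and from 4 females. Each value is a log2 ratio to this pool, so 0 means as much as in the pool, and each log2 fold change is the No NR mean minus the Ctrl NR mean.

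The cell cycle runs on waves of gene expression. Before and during S phase, E2F transcription factors released from pocket proteins switch on the genes that license, copy and supply DNA: the MCM helicase, the sliding clamp and the enzymes of nucleotide synthesis. Later, complexes that contain the MuvB core, with B-Myb and FoxM1, switch on the mitotic genes through a short element called CHR, often beside CCAAT boxes bound by NF-Y. In resting cells the same core holds these genes down as part of the DREAM complex. Mature fat cells rarely divide, and a fat pad also holds macrophages, stromal progenitors, blood vessel cells and lymphocytes, all of which can cycle. In whole tissue, fewer cells of a type and less RNA per cell cannot be told apart.

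Most of the 38 kept genes varied together from mouse to mouse. For each gene the size of the log2 fold change between the diets was below its SD over the 24 mice. For some it came close, such as Kif23 (0.25, SD 0.277) and Cenpa (0.43, SD 0.526). Mki67, whose protein Ki-67 coats mitotic chromosomes and marks cycling cells, spanned 6.10-fold between its lowest and its highest mouse, and Birc5, which encodes the chromosomal passenger survivin, spanned 7.68-fold. Between the diets, 36 of the 38 genes had a log2 fold change above 0 (94.7%), where 47.6% of all features did: all 25 kept mitotic genes and 11 of the 13 S phase genes. With the authors' processed signals 61.2% of all features lay above 0, and with median centring in place of loess 34.8% did, where 38 and 33 of the 38 genes did. Of the 38, 0 passed limma at an adjusted p under 0.05, where 0% of all 22322 features did, and the lowest adjusted p among them was 0.265. At an unadjusted limma p under 0.05 stood 2 of the 38, Kif23 and Cenpa, which is 5.26% against 13.7% of all features, a share below the background. Both were higher in No NR mice, as 6.69% of all features were at that level. The median log2 fold change was 0.22 over the 25 mitotic genes, 0.10 over the 13 S phase genes and -0.01 over all features. These genes come from the same 24 libraries and move together, so the number of genes on one side of 0 is not a number of independent results.

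**Figure D1:**
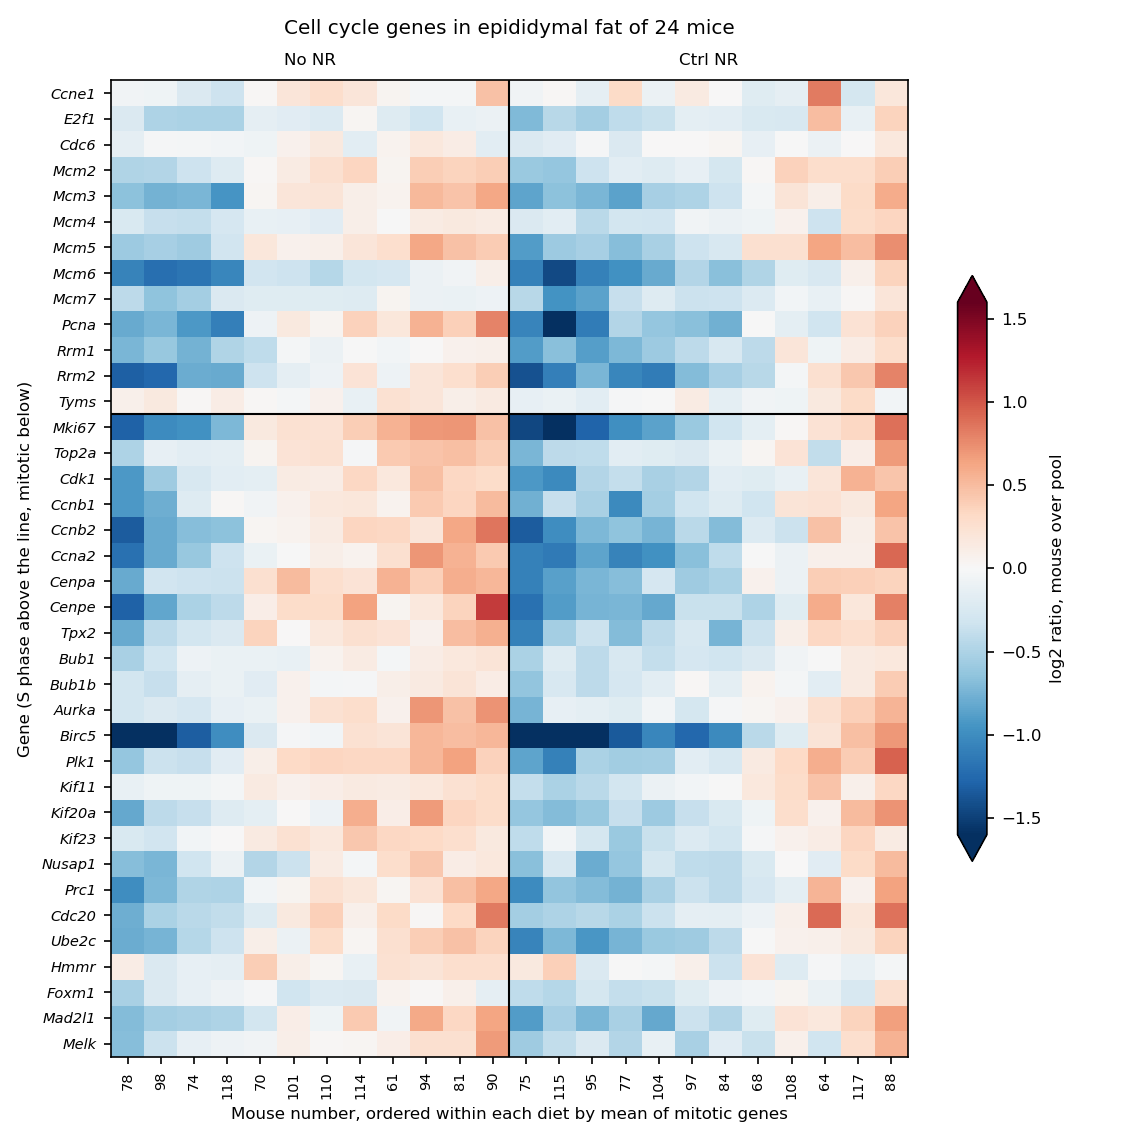
Log2 ratio of each mouse over the pool (colour, limited to 1.6 on either side of 0) for the 38 kept genes in rows, S phase genes above the line and mitotic genes below, and 24 mice in columns, No NR left and Ctrl NR right, ordered within each diet by the mean of the mitotic genes. Many columns are mostly blue or mostly red, while others are mixed, such as No NR 70 with 16 of the 38 genes above 0. In 7 No NR mice and 4 Ctrl NR mice, 20 or more of the 38 genes are above 0.

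The letters of 6 promoters are shown here because they hold the elements that set the S phase and mitotic classes apart. RefSeq promoters, 250 bases before to 50 after the start of each gene on assembly GRCm38.p6, were matched by symbol for 35 of the 42 genes, 12 of the S phase and 23 of the mitotic genes. Capitals mark each match on either strand to CHR (TTTGAA or TTCGAA), to CCAAT, or to an E2F word (one of TTCCCGC and TTCGCGC and TTGCCGC and TTGGCGC), and overlapping matches run together. Mcm5 (chr8:75109259-75109558, plus strand) and Mcm6 (chr1:128359656-128359955, minus strand), subunits of the replicative helicase, held E2F words and CCAAT and no CHR.
Mcm5: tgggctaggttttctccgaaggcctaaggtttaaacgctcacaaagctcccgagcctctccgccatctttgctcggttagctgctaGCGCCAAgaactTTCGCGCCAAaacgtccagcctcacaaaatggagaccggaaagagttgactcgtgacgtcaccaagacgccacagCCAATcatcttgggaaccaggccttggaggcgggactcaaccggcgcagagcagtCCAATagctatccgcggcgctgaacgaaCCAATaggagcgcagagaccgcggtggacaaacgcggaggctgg
Mcm6: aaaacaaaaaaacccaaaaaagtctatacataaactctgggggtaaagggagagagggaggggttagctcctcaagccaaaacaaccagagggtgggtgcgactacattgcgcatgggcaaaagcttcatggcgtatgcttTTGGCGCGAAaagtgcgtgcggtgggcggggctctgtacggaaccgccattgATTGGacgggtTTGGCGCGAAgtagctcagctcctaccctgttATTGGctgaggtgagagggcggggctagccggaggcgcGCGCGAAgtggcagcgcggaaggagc
Mki67 (chr7:135716330-135716629, minus strand) held CHR, CCAAT and an E2F word.
Mki67: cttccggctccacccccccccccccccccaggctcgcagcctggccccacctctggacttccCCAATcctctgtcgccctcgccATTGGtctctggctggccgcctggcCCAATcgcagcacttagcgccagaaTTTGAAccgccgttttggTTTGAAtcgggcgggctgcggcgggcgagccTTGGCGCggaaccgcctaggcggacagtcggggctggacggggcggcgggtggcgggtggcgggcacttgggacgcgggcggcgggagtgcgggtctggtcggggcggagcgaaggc
Ccnb2 (chr9:70421505-70421804, minus strand), which encodes a cyclin partner of CDK1, Cenpa (chr5:30666636-30666935, plus strand), the centromeric histone H3 variant, and Cdc20 (chr4:118437294-118437593, minus strand), an activator of the ubiquitin ligase that ends metaphase, held CHR and CCAAT and no E2F word.
Ccnb2: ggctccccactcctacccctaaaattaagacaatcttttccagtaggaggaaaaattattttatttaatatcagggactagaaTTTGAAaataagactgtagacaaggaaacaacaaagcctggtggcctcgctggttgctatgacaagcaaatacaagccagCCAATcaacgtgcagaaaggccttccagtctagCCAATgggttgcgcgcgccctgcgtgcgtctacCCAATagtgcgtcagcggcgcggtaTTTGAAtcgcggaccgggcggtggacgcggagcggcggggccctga
Cenpa: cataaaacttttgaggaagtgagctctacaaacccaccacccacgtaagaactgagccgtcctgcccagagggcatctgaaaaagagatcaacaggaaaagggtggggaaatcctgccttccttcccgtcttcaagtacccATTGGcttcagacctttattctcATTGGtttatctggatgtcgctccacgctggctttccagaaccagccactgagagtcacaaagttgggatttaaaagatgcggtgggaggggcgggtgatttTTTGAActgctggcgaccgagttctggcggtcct
Cdc20: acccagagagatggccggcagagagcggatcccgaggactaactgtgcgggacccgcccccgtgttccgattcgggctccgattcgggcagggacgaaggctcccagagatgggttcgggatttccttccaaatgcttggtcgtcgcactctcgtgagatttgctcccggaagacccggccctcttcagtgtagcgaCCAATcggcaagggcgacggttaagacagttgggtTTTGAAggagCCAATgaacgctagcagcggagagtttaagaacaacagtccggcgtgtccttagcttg

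CHR was found in 17 of the 23 mitotic promoters (73.9%), in 2 of the 12 S phase promoters (16.7%) and in 19.5% of the promoters of all 27025 genes in RefSeq's table. An E2F word was found in 4 of the 23 mitotic promoters (17.4%), in 7 of the 12 S phase promoters (58.3%) and in 9.72% of all promoters. CCAAT was common in both classes, in 82.6% of mitotic and 66.7% of S phase promoters, against 38.0% of all. Each of the 17 mitotic promoters with CHR also held CCAAT, a pair found in 7.73% of all promoters. Both S phase promoters with CHR, those of Mcm2 and Mcm7, belong to helicase subunits. The Mcm6 promoter held 7 matches, 5 of them E2F words. Counted from 1 at the first base of the gene, CHR began at -116 and -98 in Mki67, downstream of 3 CCAAT boxes, at -167 and 5 in Ccnb2, at 17 in Cenpa, and in Cdc20 at -18, between CCAAT boxes at -53 and -8. None of the 3 motifs was held by 4 of the 23 mitotic promoters, those of Birc5, Mad2l1, Melk and Nusap1. The same was true of 3 of the 12 S phase promoters, those of Ccne1, E2f1 and Tyms, and of 12174 of all 27025 promoters. This says only that these letters are not in this window. Genes outside the list had like shares, with CHR in 36 of 48 other mitotic and 5 of 27 other S phase promoters, and an E2F word in 11 of 48 other mitotic and 16 of 27 other S phase promoters. With the window cut to the 150 bases before the start, CHR was found in 6 of 23 mitotic and 1 of 12 S phase promoters (9.88% of all), and an E2F word in 3 of 23 and 4 of 12 (5.58% of all). The matches describe letters, not binding.

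**Figure D2:**
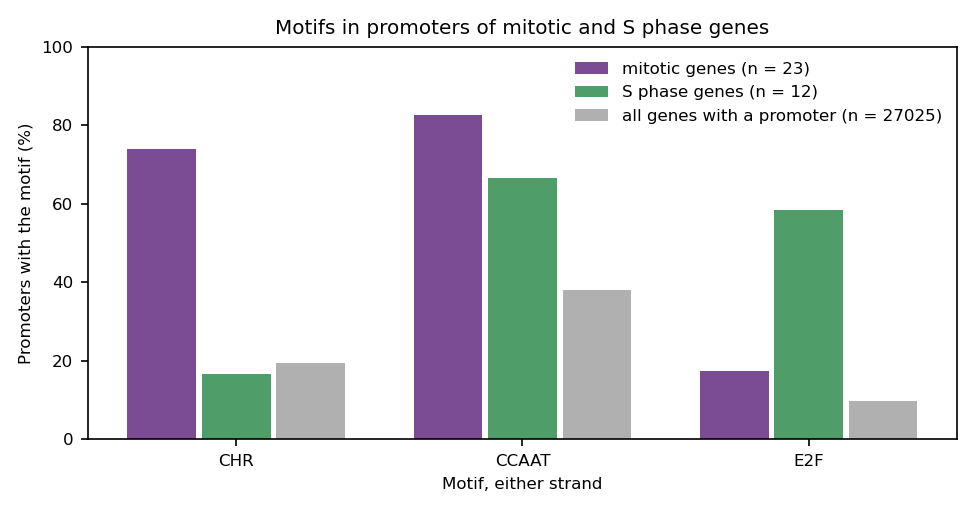
Share of promoters (percent, vertical axis) with CHR, CCAAT or an E2F word on either strand, for mitotic genes, S phase genes and all genes in RefSeq's table. CHR stands at 73.9% in mitotic and 16.7% in S phase promoters, and E2F words stand at 17.4% and 58.3%.

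The spread across the 24 mice differed widely among the genes. The SD of the log2 ratio had a median of 0.457 over the mitotic genes and 0.342 over the S phase genes, against 0.199 over all features. It was largest for Birc5 (0.949), Mki67 (0.782) and Cenpe (0.645), a kinetochore motor, among mitotic genes, and for Pcna (0.639), the sliding clamp of DNA polymerases, Rrm2 (0.635), the small subunit of ribonucleotide reductase, and Mcm3 (0.518) among S phase genes. It was smallest for Cdc6 (0.121), which loads the helicase, Tyms (0.130), thymidylate synthase, Foxm1 (0.190), a transcription factor of the mitotic wave, and Hmmr (0.203), a spindle-associated hyaluronan receptor. The background correction added an offset of 50, which narrows the ratios of a dim probe. Cdc6, Tyms and Foxm1 were well above background on 13, 14 and 17 of the 24 arrays, and from the authors' deposited processed signals, which have no such offset, their SD was 0.57, 0.63 and 0.69. Hmmr, above background on all 24 arrays, was at 0.31 there. By those signals the median SD was 0.936 over mitotic and 0.539 over S phase genes. By the probe used, 17 of the kept genes were above background on all 24 arrays, 10 of the S phase and 7 of the mitotic genes. The kept genes nearest the limit, Kif11 and Bub1, were above it on 8 arrays. The nearest gene left out was Aurkb, Aurora kinase B, with 2 arrays, both No NR. Cenpf, a kinetochore protein, was above it on 1 array, and Ccne2, cyclin E2, and Ttk, the checkpoint kinase MPS1, on 0, so these 4 were left out as dim.

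None of the regulators at the entry to S phase passed between the diets, where 0% of all 22322 features did. E2f1, the transcription factor that opens S phase, had a lowest, median and highest ratio of -0.51, -0.21 and 0.03 in No NR mice, against -0.71, -0.25 and 0.50 in Ctrl NR mice. Nearly all mice of both diets lay below the pool, and the Ctrl NR mice enclosed the No NR mice. The log2 fold change was -0.04 (95% interval -0.25 to 0.18, limma adjusted p = 0.907). Ccne1, cyclin E1, the partner of CDK2 at that step, was the other gene below 0, at -0.01 (-0.22 to 0.20). Cdc6 ran over -0.17, -0.03 and 0.17 in No NR mice and over -0.23, -0.01 and 0.17 in Ctrl NR mice. Its range was nearly the same in both diets, with a log2 fold change of 0.05 (-0.07 to 0.16, limma adjusted p = 0.723).

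The 6 subunits of the MCM2-7 helicase, which unwinds DNA at the fork, had log2 fold changes from 0.01 for Mcm4 to 0.20 for Mcm3. Mcm3 lay at -0.94, 0.07 and 0.62 (lowest, median, highest) in No NR mice and at -0.85, -0.41 and 0.60 in Ctrl NR mice. The extremes of the diets lay close to each other, while 8 of 12 No NR mice exceeded the Ctrl NR median (95% interval of the fold change -0.20 to 0.60, limma adjusted p = 0.676). Mcm2 lay at -0.48, 0.09 and 0.40 in No NR mice and at -0.62, -0.15 and 0.39 in Ctrl NR mice. Its log2 fold change was 0.12 (-0.15 to 0.39, limma adjusted p = 0.709), and the diets overlapped over nearly the whole range. Mcm6, the subunit with the widest span (3.49-fold), was at 0.07 (-0.32 to 0.45), and Mcm5 at 0.14 (-0.24 to 0.52).

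Pcna had the largest difference of the S phase genes. It lay at -1.09, 0.10 and 0.80 in No NR mice and at -1.68, -0.55 and 0.37 in Ctrl NR mice. The highest mouse was No NR 90 and the lowest Ctrl NR 115, but 4 of the 12 No NR mice stood below the Ctrl NR median. The log2 fold change was 0.43 (1.34-fold, -0.04 to 0.90, limma adjusted p = 0.415). Of the enzymes that supply nucleotides, Tyms lay at -0.12, 0.08 and 0.25 in No NR mice and at -0.17, -0.05 and 0.31 in Ctrl NR mice. Although 11 of 12 No NR mice exceeded the Ctrl NR median, the ranges overlapped and the log2 fold change was 0.10 (-0.02 to 0.21, limma adjusted p = 0.463). Rrm2 lay at -1.31, -0.11 and 0.39 in No NR mice and at -1.40, -0.61 and 0.80 in Ctrl NR mice, so that both the lowest and the highest mouse were Ctrl NR. Its log2 fold change was 0.16 (-0.34 to 0.65, limma adjusted p = 0.802), and that of Rrm1, the large subunit, was 0.11 (-0.18 to 0.40).

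The lowest p among mitotic genes were those of Kif23 and Cenpa. Kif23, a kinesin of the central spindle needed for cytokinesis, lay at -0.31, 0.16 and 0.43 in No NR mice and at -0.59, -0.13 and 0.35 in Ctrl NR mice. Of the No NR mice, 10 of 12 exceeded the Ctrl NR median, yet the ranges overlapped. The log2 fold change was 0.25 (1.19-fold, 0.05 to 0.45, unadjusted limma p = 0.0174, limma adjusted p = 0.265). The probe was above background on 10 No NR and 6 Ctrl NR arrays. Cenpa lay at -0.81, 0.26 and 0.58 in No NR mice and at -1.09, -0.38 and 0.40 in Ctrl NR mice. Here 11 of 12 No NR mice exceeded the Ctrl NR median, and No NR 78 lay below it. The log2 fold change was 0.43 (1.34-fold, 0.05 to 0.80, unadjusted limma p = 0.0284, limma adjusted p = 0.302). Cenpe lay at -1.29, 0.14 and 1.12 in No NR mice and at -1.19, -0.43 and 0.81 in Ctrl NR mice, with both the lowest and the highest mouse on No NR (0.35, -0.14 to 0.83, limma adjusted p = 0.529).

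**Figure D3:**
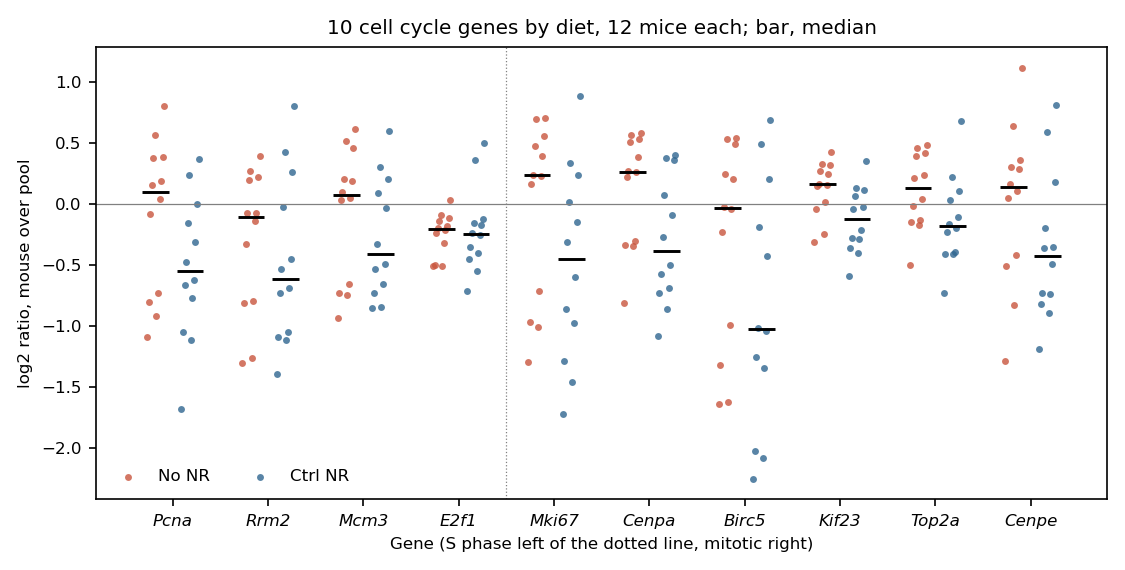
Log2 ratio over the pool (vertical axis) of each mouse for 10 genes, No NR left and Ctrl NR right within each gene, with the median as a bar (12 mice per diet). The diets overlap for all 10 genes, and the No NR mice of Mki67, Pcna and Birc5 fall into an upper and a lower group with 4 mice in the lower.

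Among genes that act on chromosomes and the spindle, Mki67 lay at -1.29, 0.23 and 0.70 in No NR mice and at -1.73, -0.46 and 0.88 in Ctrl NR mice. Ctrl NR mice were both the lowest and the highest, and the log2 fold change was 0.45 (1.36-fold, -0.14 to 1.03, limma adjusted p = 0.497). Birc5 lay at -1.64, -0.03 and 0.54 in No NR mice and at -2.25, -1.03 and 0.69 in Ctrl NR mice. It had the largest log2 fold change of the 38, 0.53 (1.45-fold, -0.18 to 1.24, limma adjusted p = 0.507), with the widest interval. Its 3 kept probes ran from 0.30 to 0.53, and the dimmer 2 of them had unadjusted limma p of 0.0366 and 0.0418. Of all features, 13.7% stood at an unadjusted p under 0.05. The other genes with several kept probes had no probe at that level. Their probes ran from 0.45 to 0.47 for Mki67, from 0.26 to 0.32 for Ube2c, and from 0.01 to 0.21 for Mad2l1. Top2a, the topoisomerase that untangles sister chromatids, lay at -0.50, 0.13 and 0.48 in No NR mice and at -0.73, -0.18 and 0.68 in Ctrl NR mice. Of the No NR mice, 11 of 12 exceeded the Ctrl NR median (0.24, -0.02 to 0.51, limma adjusted p = 0.414). Tpx2, a spindle assembly factor that activates Aurora A, lay at -0.80, 0.12 and 0.57 in No NR mice and at -1.08, -0.35 and 0.37 in Ctrl NR mice (0.31, -0.02 to 0.65, limma adjusted p = 0.402). Hmmr lay at -0.23, 0.10 and 0.40 in No NR mice and at -0.34, -0.03 and 0.38 in Ctrl NR mice, nearly the same range (0.09, -0.07 to 0.26, limma adjusted p = 0.629).

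Among kinases, checkpoint and degradation genes, 0 passed between the diets, as 0% of all 22322 features did. Ube2c, the E2 enzyme of the anaphase-promoting complex, lay at -0.79, 0.07 and 0.46 in No NR mice and at -1.06, -0.49 and 0.35 in Ctrl NR mice. Its interval began just below 0 (0.32, -0.03 to 0.67, limma adjusted p = 0.414), with 10 of 12 No NR mice over the Ctrl NR median. Melk, a kinase of proliferating cells, lay at -0.68, 0.02 and 0.68 in No NR mice and at -0.57, -0.28 and 0.55 in Ctrl NR mice, and its highest and lowest mouse were both No NR (0.20, -0.06 to 0.46, limma adjusted p = 0.498). Bub1, a spindle checkpoint kinase, lay at -0.52, -0.06 and 0.21 in No NR mice and at -0.51, -0.25 and 0.16 in Ctrl NR mice (0.14, -0.03 to 0.32, limma adjusted p = 0.469). Foxm1 lay at -0.51, -0.14 and 0.08 in No NR mice and at -0.46, -0.23 and 0.26 in Ctrl NR mice. Its log2 fold change was 0.05 (-0.12 to 0.21, limma adjusted p = 0.825). Cdc20 had the smallest log2 fold change of the mitotic genes, 0.04 (-0.33 to 0.41). The other 12 mitotic genes lay between 0.08 for Bub1b, the checkpoint protein BubR1, and 0.35 for Ccna2, cyclin A2, each with an interval that held 0. Of these, Cdk1, the kinase that drives mitosis, was at 0.24 and its partners Ccnb1 and Ccnb2 at 0.22 and 0.35. The polo-like kinase gene Plk1 was at 0.25.

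**Figure D4:**
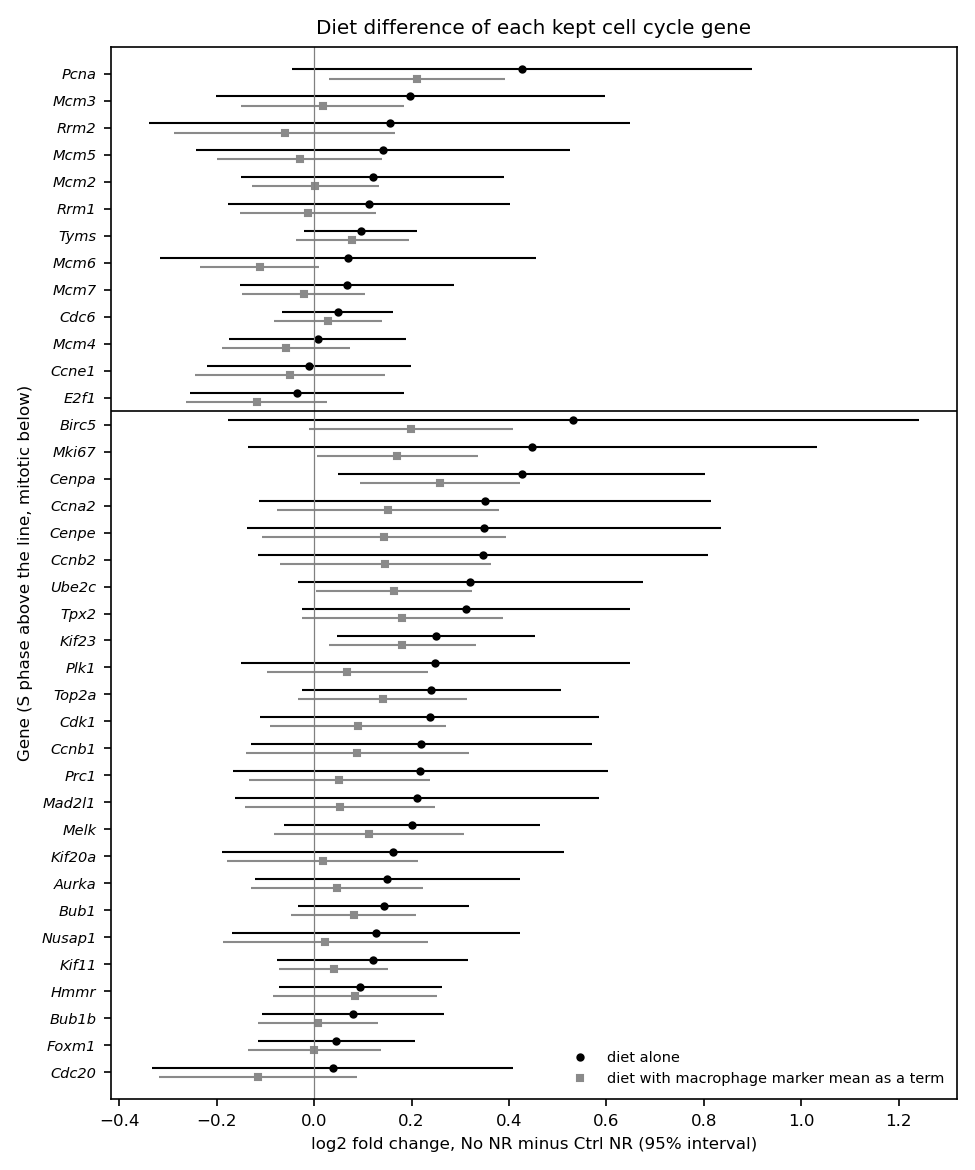
Log2 fold change of No NR minus Ctrl NR (horizontal axis) with its 95% interval for each kept gene, by diet alone (black) and with the mean of the macrophage markers as a term (grey). S phase genes stand above the line. By diet alone the intervals of Kif23 and Cenpa exclude 0, and with the term those of Cenpa, Kif23, Pcna, Mki67 and Ube2c do.

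The 24 arrays lay on 5 slides, each with both diets, and the direction was not the same on all of them. The median difference of the mitotic genes was -0.08, 0.34, -0.08, 0.13 and 0.56 on slides 1 to 5, and that of the S phase genes -0.22, 0.16, -0.21, 0.06 and 0.34. Of the 25 mitotic genes, 7, 24, 8, 19 and 25 were higher in No NR mice on these slides. Slide 1 rests on 1 No NR mouse and 2 Ctrl NR mice, and slide 3 on 3 No NR mice and 2 Ctrl NR mice. Cenpa was at -0.10, 0.51, -0.07, 0.36 and 0.86, and Kif23 at -0.14, 0.43, 0.10, 0.30 and 0.30. The mean of the macrophage markers had the same sign as the mitotic genes on each slide, with differences of -0.56, 0.56, -0.46, 0.26 and 0.91. A limma fit with the slide as a block had Cenpa at 0.35 (adjusted p = 0.443) and Kif23 at 0.23 (adjusted p = 0.338), and Cenpa then had an unadjusted p of 0.0796.

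S phase and mitotic genes followed each other closely across mice. Averaged per mouse, the 25 mitotic genes lay at -0.74, 0.10 and 0.45 (lowest, median, highest) in No NR mice and at -0.84, -0.34 and 0.53 in Ctrl NR mice, with means ± SD of -0.01 ± 0.39 and -0.25 ± 0.42 (n = 12 each). The 13 S phase genes lay at -0.54, -0.01 and 0.24 in No NR mice and at -0.66, -0.28 and 0.36 in Ctrl NR mice. Ctrl NR 88 was the highest mouse by both means, and it was the highest of all 24 for 19 of the 38 genes. Ctrl NR 75 was lowest for 13 genes, and No NR 78 and Ctrl NR 115 for 8 each. Across the 24 mice, with each diet's mean removed, r between the 2 means was 0.977 (rho = 0.983), and it was 0.963 in No NR mice and 0.990 in Ctrl NR mice. This is a description, since both means of a mouse come from the same array. By gene, the median r of a pair was 0.828 over 300 mitotic pairs, 0.718 over 78 S phase pairs and 0.783 over 325 mixed pairs. The closest pair was Mki67 and Birc5 (r = 0.976), and the closest mixed pair Mki67 and Mcm6 (r = 0.967). The exception among mitotic genes was Hmmr, with r = 0.108 to the mitotic mean, and among S phase genes Tyms (0.337), Ccne1 (0.359) and Cdc6 (0.502) followed that mean least. Tyms and Cdc6 are dim, above background on 14 and 13 of the 24 arrays, which limits their r. Hmmr and Ccne1 were above it on all 24.

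The classes did not keep the same distance in every mouse. The S phase mean minus the mitotic mean lay at -0.23, -0.15 and 0.23 in No NR mice and at -0.17, 0.01 and 0.18 in Ctrl NR mice. It was below 0 in 11 of 12 No NR mice, with No NR 78 above, and in 6 of 12 Ctrl NR mice. The difference fell as the mitotic mean, which is a part of it, rose across mice. With each diet's mean removed r was -0.789, and it was -0.762 in No NR and -0.854 in Ctrl NR mice. Whether the diets differ in this distance beyond the level of the genes was not tested. Zero has no meaning of its own here, since each ratio is relative to the pool. The difference is a score over genes chosen with results known, so it has no test.

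**Figure D5:**
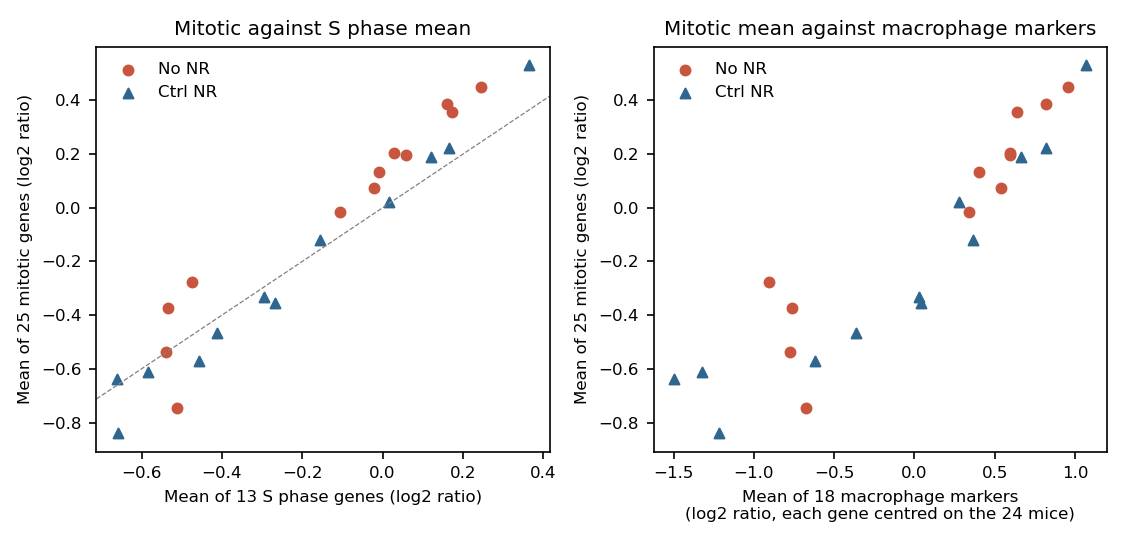
Left, mean log2 ratio of the 25 mitotic genes (vertical) against that of the 13 S phase genes (horizontal) for each mouse, with the line of equal means dashed. Right, the same mitotic mean against the mean of 18 macrophage markers, centred per gene. No NR mice are circles and Ctrl NR mice triangles. In both panels the mice of both diets lie along 1 band, and No NR mice leave a gap between -0.67 and 0.34 in the macrophage mean that 5 Ctrl NR mice fill.

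Markers of other cells moved with these genes from mouse to mouse. Of 20 macrophage markers, 18 were on the array by accession and kept, and all 18 had a log2 fold change above 0, 1 of them (Ccr2, a chemokine receptor of monocytes) at an unadjusted p under 0.05, where 13.7% of all features stood. Their mean log2 ratio lay at -1.26, 0.11 and 0.60 in No NR mice and at -1.86, -0.33 and 0.71 in Ctrl NR mice. Csf1r, the receptor for the macrophage growth factor CSF1, was at 0.22 (-0.18 to 0.61) and Ctss, the protease cathepsin S, at 0.46 (-0.50 to 1.43). Across mice within diets, r with the mean of these markers was 0.928 for the mitotic and 0.971 for the S phase mean. By gene, 34 of the 38 passed a permutation test of r adjusted over all 21981 features without missing values, where 15.0% of features passed with r above 0, and the same number passed for rho, where 13.4% did. Those that did not were Ccne1, Hmmr and the dim genes Cdc6 and Tyms. Mki67 had r = 0.967 and rho = 0.945, and Mcm6 had r = 0.967 and rho = 0.927. The permutation p of each of these was 1e-05, the smallest the permutations can give (adjusted p = 0.000153 for r and 0.000176 for rho). An r above 0.8 was found for 25 of the 38 genes, or 65.8%, against 4.86% of all features. Without Ctrl NR 95 and Ctrl NR 115, the mice farthest from the median of the markers, the median r of the 38 was 0.869, against 0.868 with all mice. With slide removed it was 0.883. The part of macrophages in the ratios was not tested by this, since members and markers share their libraries and the relation was known when the genes were listed.

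No NR mice fell into 2 sets by these markers, 8 mice at 0.34 or above and 4 at -0.67 or below after centring. Among the 8, r with the marker mean was 0.917 for the mitotic and 0.924 for the S phase mean, and it was above 0 for 37 of the 38 genes, with a median of 0.691. The 4 others are too few for a value. In Ctrl NR mice, whose largest gap was 0.597, r was above 0 for 37 of the 38 genes with a median of 0.870. Hmmr differed in sign there, with r = -0.309 in Ctrl NR mice and 0.683 in No NR mice, a difference that was not tested.

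By the mean of each list, fat cell and vessel markers ran against the cell cycle genes across mice, and stromal markers ran with them. Of 15 adipocyte markers, 5 were higher in No NR mice and 10 lower, with mean ratios of -0.60, -0.21 and 0.77 in No NR mice and -0.70, 0.18 and 0.62 in Ctrl NR mice. Fabp4, the fatty acid carrier of fat cells, was at -0.14 (-0.49 to 0.21) and Dgat2, which makes triglyceride, at -0.06 (-0.44 to 0.32). Their mean had r = -0.941 with the mitotic and -0.978 with the S phase mean. Of 10 endothelial markers, 3 were higher and 7 lower, 5 of these at an unadjusted p under 0.05 (Cdh5, Eng, Kdr, Cldn5 and Egfl7), where 13.7% of all features stood in either direction. Their mean ratios were -0.35, -0.08 and 0.09 in No NR mice and -0.33, 0.07 and 0.24 in Ctrl NR mice. The tight junction gene Cldn5 was at -0.27 (limma adjusted p = 0.316) and the secreted vessel factor gene Egfl7 at -0.26 (limma adjusted p = 0.321). The endothelial mean had r = -0.813 with the mitotic mean, and by gene r ran from -0.79 for Kdr to -0.11 for Cldn5. Of 10 stromal progenitor markers, 9 were higher and 1 lower, with mean ratios of -0.69, 0.04 and 0.18 in No NR mice and -0.98, -0.19 and 0.14 in Ctrl NR mice and r = 0.790 with the mitotic mean. The matrix genes Dcn and Col3a1 were at 0.42 (limma adjusted p = 0.137) and 0.29 (limma adjusted p = 0.615). Single stromal markers followed the mitotic mean unequally, from r = -0.07 for Ly6a to 0.88 for Lum, with Dcn at 0.39 and Col3a1 at 0.84. The part of these cells in the ratios of the cell cycle genes was not tested.

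Lymphocyte markers followed the cell cycle genes less. Of 10 T and NK cell markers, 8 were kept, 5 higher and 3 lower, with mean ratios of -0.12, 0.03 and 0.24 in No NR mice and -0.23, 0.07 and 0.26 in Ctrl NR mice and r = 0.343 with the mitotic mean. Nkg7, a granule gene of killer cells, was at 0.08 (-0.14 to 0.29) and Cd4 at 0.03 (-0.11 to 0.17). Of 7 B cell markers, 4 were kept, all lower, 2 at an unadjusted p under 0.05, with mean ratios of -0.57, -0.31 and 0.28 in No NR mice and -0.55, -0.00 and 1.01 in Ctrl NR mice and r = -0.089 with the mitotic mean. These 2, at a level where 13.7% of all features stood in either direction, were Cd79b, of the B cell receptor (-0.56, limma adjusted p = 0.236), and Ms4a1, which encodes CD20 (-0.60, limma adjusted p = 0.268). All 6 mesothelial markers were lower, with mean ratios of -0.81, -0.30 and 0.43 in No NR mice and -0.91, -0.08 and 0.73 in Ctrl NR mice, Msln at -0.25 and Wt1 at -0.07, and r was -0.238. Of 12 epididymis and testis markers, tissue that borders this pad, 5 were kept, 1 higher and 4 lower, with mean ratios of -1.74, -0.99 and 0.83 in No NR mice and -1.53, -1.22 and 2.41 in Ctrl NR mice. Sycp3, of meiotic chromosomes, was at 0.09 and Prm2, a sperm protamine, at -0.31. Their mean had r = -0.025 with the mitotic mean, and without the 3 mice in which it was high (No NR 110, Ctrl NR 77 and Ctrl NR 108) the median of the mitotic genes was 0.22 and that of the S phase genes 0.09. The share of spots above background in Cy5, 34.5% to 50.7% per array, had r = 0.062 with the mitotic mean.

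With the mean of the macrophage markers as a term beside diet, the difference shrank for most genes and narrowed in error. Of the 38 genes, 29 were then above 0, where 44.9% of all features were, 24 mitotic and 5 S phase genes. The median was 0.09 over mitotic and -0.02 over S phase genes, against -0.01 over all features. At an adjusted p under 0.05 stood 0 of the 38 and 0.332% of all features. At an unadjusted p under 0.05 stood 14.5% of all features, 7.10% higher in No NR mice, and 5 of the 38, all higher in No NR mice. These were Cenpa at 0.26 (0.09 to 0.42, limma adjusted p = 0.136), Pcna at 0.21 (0.03 to 0.39, adjusted p = 0.264), Kif23 at 0.18 (0.03 to 0.33, adjusted p = 0.255), Mki67 at 0.17 (0.01 to 0.34, adjusted p = 0.324) and Ube2c at 0.16 (0.00 to 0.32, adjusted p = 0.326). Below 0 stood 9 of the 38, 8 S phase genes and the mitotic gene Cdc20, each with an interval that held 0. Lowest were E2f1 at -0.12 (-0.26 to 0.03), Mcm6 at -0.11 (-0.23 to 0.01) and Cdc20 at -0.12 (-0.32 to 0.09). The term is measured on the same arrays as the genes. The adipocyte marker mean, with r = -0.941 to the mitotic and -0.978 to the S phase mean, was not fitted as a term. Whether the shrinking is particular to the macrophage markers was therefore not tested.

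Other genes of the same waves were also mostly higher in No NR mice. Of 39 other S phase genes, 35 were kept, 32 higher and 3 lower in No NR mice, with a median of 0.12 and 3 at an unadjusted p under 0.05. Of all features, 47.6% were higher and 13.7% stood at that level in either direction, with 6.69% at that level and higher in No NR mice. The 3 other S phase genes at that level were Rfc3, a subunit of the clamp loader, at 0.26 (0.10 to 0.42, limma adjusted p = 0.145), Mcm10, an initiation factor, at 0.33 (0.07 to 0.60, adjusted p = 0.253), and Slbp, which binds histone transcripts, at 0.21 (0.02 to 0.40, adjusted p = 0.315). Of 58 other mitotic genes, 42 were kept, 41 higher and 1 lower, with a median of 0.16 and 6 at an unadjusted p under 0.05. All 6 were higher in No NR mice, where 6.69% of all features were higher at that level and 13.7% stood there in either direction. The lowest p were those of the kinetochore gene Cenpk (0.17, adjusted p = 0.304), Hjurp, the chaperone that places CENP-A at centromeres (0.15, adjusted p = 0.324), and Ndc80, the microtubule-binding kinetochore gene (0.19, adjusted p = 0.336). Each mean ran with the mitotic mean of the listed genes, at r = 0.981 and 0.992, but single genes did so unequally. By gene, r ran from -0.56 for Ung to 0.98 for Tk1 among the other S phase genes. Among the other mitotic genes it ran from -0.80 for Pttg1, the 1 lower in No NR mice, to 0.98 for Cdca5. None of these genes passed at an adjusted p under 0.05, where 0% of all features did.

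Genes that govern entry to the cycle were mixed. Of 25 G1 cyclins, CDKs, pocket proteins and E2F genes, 23 were kept, 8 higher and 15 lower, with a median of -0.02. Ccnd3, cyclin D3, lay at -0.59, -0.18 and 0.18 in No NR mice and at -0.43, 0.03 and 0.40 in Ctrl NR mice (-0.23, -0.43 to -0.02, limma adjusted p = 0.308), and it ran against the mitotic mean (r = -0.770). Rbl1, the pocket protein p107, was at 0.19 (-0.01 to 0.39) and ran with it (r = 0.553), and Lin37, a MuvB subunit, was at -0.11 (-0.23 to 0.01).

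All 7 CDK inhibitors, which brake the cycle, were kept, and 3 were higher and 4 lower. Cdkn2c (p18) lay at -1.24, -0.46 and 0.01 in No NR mice and at -0.65, -0.32 and 0.91 in Ctrl NR mice (-0.35, -0.69 to -0.01, limma adjusted p = 0.345). It ran against the mitotic mean, with r = -0.791. Cdkn1c (p57) lay at -0.24, -0.12 and 0.17 in No NR mice and at -0.30, 0.07 and 0.61 in Ctrl NR mice (-0.18, -0.34 to -0.02, limma adjusted p = 0.316), with r = 0.075. Cdkn2a, which encodes p16 and ARF, lay at -0.56, -0.19 and 0.20 in No NR mice and at -0.39, -0.06 and 0.88 in Ctrl NR mice (-0.24, -0.49 to 0.01). The inhibitors did not share a pattern across mice. Cdkn1a (p21) lay at -0.81, 0.25 and 0.51 in No NR mice and at -0.87, 0.02 and 0.91 in Ctrl NR mice (0.06, -0.32 to 0.43), and it ran with the mitotic mean (r = 0.817), as did Cdkn1b (p27), at 0.02 (r = 0.732). Cdkn2b (p15) was at 0.05 and ran against it (r = -0.506), and Cdkn2d (p19), at -0.04, followed it weakly (r = 0.159). Each is a whole-tissue value, so braked and cycling cells of different types enter the same ratio.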

How the data were processed

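Transcripts of epididymal fat were measured in 24 male mice, 12 per diet, each on its own 2-colour Agilent array of 62976 spots. Per the file headers, the deposited intensity values are linear spot signals read by version 10.7.3.1 of Agilent Feature Extraction from a probe design on mm9. The authors' deposited processed intensity had its background subtracted and its dyes normalized by that program. Outlier, saturation and above-background columns in the deposited files are scored as 0 or 1 for each spot. The authors' deposited value table holds log2 values for 26384 features that follow the Cy5 signal of each array (r at least 0.99). How its values were normalized and filtered is not given in the sources used here.

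Median spot signals were used, corrected with normexp (offset 50) and normalized by loess within arrays in limma 3.58.1 under R 4.3.3. Control and outlier spots were left out, and spots were averaged over 55681 probes, of which 27235 had 1 gene symbol through RefSeq accessions and 28446 had none. Probes well above background in Cy5 on at least 6 of 24 arrays were kept, and a gene with several was its brightest. Diets were compared with limma (lmFit, eBayes) over 22322 features with Benjamini-Hochberg adjustment at 0.05. Correlations with the macrophage marker mean were tested with 100000 permutations of mice within diets and adjusted over the 21981 features without missing values, in place of a planned adjustment over the 38 genes. The fit was tested on simulated data, where it recovered most of the largest changes planted in features drawn at random. Changes as small as the class medians given here were not planted, so it is not known whether differences of that size would be found.

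All arrays had 1 dye orientation, so a dye bias of a probe cancels between diets. Animal numbers differ between diets, and nothing pairs the mice. No identical arrays were found. Each array holds 1 mouse, and precision is limited by how many arrays each diet has. The members, the gene lists and the markers were chosen with earlier results of these data known. Per-diet values are given for the 5 S phase and 8 mitotic genes with the lowest p, the 3 with the largest and 2 with the smallest SD of each class, Mki67, Top2a, Pcna and E2f1. Of the other cell cycle lists, the 3 genes with the lowest p and every CDK inhibitor are named, and of each marker list the 2 brightest. Ccr2, Cdh5, Eng, Kdr, Ly6a, Lum, Ung, Tk1, Pttg1 and Cdca5 were named after their values were seen. Alternatives changed the background correction, the normalization, the filter, the probe rule, the slide, weights and variance model, or left out mice.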

Additional observations from a re-analysis of the deposited data

How the results depend on the processing

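Under each of 39 alternative settings, 0 of the kept genes passed at an adjusted p under 0.05, and the lowest adjusted p among them ran from 0.0666, with array weights, to 1.00, with median centring in place of loess. The Aquantile setting, which is counted in the 39, leaves the log2 ratios unchanged, so its values had to equal those of the main fit. Array weights gave 12 genes at an unadjusted p under 0.05, where 18.4% of all features stood, against 2 without weights, where 13.7% did, and brought 192 features past the adjusted threshold. The processed signals (16.0% of all features), median centring (1.45%) and the value table (11.7%) each gave 1 such gene. So did the slide as a fixed block (12.8%) and leaving out the 3 mice with high epididymis and testis markers (13.2%). The filter of all 24 arrays, which left 18 genes, gave 0 (14.6% of all features). Leaving out single mice gave from 1 to 11. There were 11 without No NR 78 (14.2% of all features) and 5 without No NR 98 (14.04% of all features), and 1 when No NR 61 or No NR 81 was omitted. Omitting a Ctrl NR mouse gave 10 for mouse 88 (14.4% of all features), 7 for mouse 117 (17.1%), 4 for mouse 64 (12.8%) or 108 (13.2%), and 1 for mouse 75, 95 or 115. Over all leave-one-out fits, 11.6% to 17.1% of all features stood at that level. Over all features, median centring gave 323 at that level, against 3061 with loess. The mitotic median ran from 0.09, with the macrophage term, to 0.48, with the authors' processed signals, and from 0.17 to 0.30 without single mice. The S phase median ran from -0.02, with the macrophage term, to 0.19, and from 0.065 to 0.155 without single mice. E2f1 was at 0.066 with the processed signals and at 0.0096 with array weights, and ran from -0.080 to 0.029 without single mice, above 0 without Ctrl NR 64 and without Ctrl NR 88. Cdc6 was at -0.024 and Foxm1 at -0.057 in the authors' value table, and Rrm2 at -0.061 with the macrophage term. The cause of these turns was not tested. With median centring, the S phase and mitotic means had r = 0.945. No paired analysis was possible because the mouse numbers differ between the diets and nothing pairs the mice. Leaving out those 3 mice and taking the SD from the processed signals were alternatives chosen after seeing the data. Signal over background limits the dim genes most, since Kif11 and Bub1 were above it on 8 arrays.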
